A study of Mus musculus with 6 samples.

Results

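The genes described here encode the machinery that carries proteins into mitochondria, and they were followed in primary cardiomyocytes of neonatal mice. Members were rows of the count table whose symbol starts with Timm or Tomm and a digit, or is Grpel1, Grpel2, Pam16, Pmpca, Pmpcb, Samm50, Mtx1 or Mtx2, with at least 60 counts summed over the 6 libraries. Of 56691 gene rows, 34 matched by name and 31 of these reached the sum. The row nearest inside the limit was Tomm6, with 238 counts. Those outside were Tomm6os with 30, Tomm20l with 11 and Timm8a2 with 1. All 31 members passed the filter on low counts and were tested.

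Bulk RNA sequencing was done on 2 groups of 3 libraries. In the HMGB2 group the cardiomyocytes had received an adenovirus of serotype 5 with HMGB2, a DNA-bending chromatin protein, under the cardiac troponin T (cTNT) promoter, named Ad5-cTNT-HMGB2. In the vector group they had received Ad5-cTNT without HMGB2. Both groups therefore carried adenovirus, and no library of cells without virus was analysed here. The cTNT promoter is active in cardiomyocytes, so other heart cells of a culture are not the cells it is meant for. The labels name heart as the tissue and do not give strain, age in days, virus dose or time of collection. Nor do they state that replicates came from different cultures or animals, so the p-values speak only for the scatter among these libraries, which could be technical.

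Almost all mitochondrial proteins are made in the cytosol and imported. Precursors are recognised by receptors of the TOM complex on the outer membrane and pass its channel, and the SAM complex folds beta-barrel proteins into that membrane. Small TIM chaperones escort hydrophobic precursors across the intermembrane space, the TIM22 complex inserts carrier proteins into the inner membrane, and the TIM23 complex with its motor draws proteins with a presequence into the matrix, where a processing peptidase removes the presequence. Cardiomyocytes are rich in mitochondria and depend on this route for their respiratory enzymes.

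Between 14497676 and 16618365 counts per HMGB2 library and between 12498215 and 14101385 counts per vector library were assigned to genes. Hmgb2 itself held 175, 196 and 182 CPM (counts scaled by library size) in the HMGB2 libraries, against 46.8, 44.8 and 36.3 CPM in the vector libraries. Cardiomyocyte markers were abundant, with summed levels of 27760 to 28140 CPM in HMGB2 libraries and 16994 to 18281 CPM in vector libraries, and 8 of 10 rose (median log2 fold change 0.71). Of the markers of other heart cells, 2 of 8 fibroblast, 2 of 8 endothelial, 4 of 8 macrophage, 1 of 6 smooth muscle and pericyte and 1 of 5 epicardial genes fell and none rose, with median log2 fold changes of -0.18, -0.16, -0.63, -0.14 and 0.02. Their summed levels were 4404 to 4497 CPM with HMGB2 and 4954 to 5028 CPM with the vector for fibroblasts, and 2621 to 2682 CPM against 3001 to 3046 CPM for endothelial cells. For macrophages they were 71.1 to 82.5 CPM against 95.4 to 130 CPM, for smooth muscle and pericytes 329 to 418 CPM against 357 to 472 CPM, and for epicardial cells 125 to 134 CPM against 154 to 176 CPM. Red blood cell markers summed to at most 0.69 CPM with HMGB2 and 1.10 CPM with the vector, with Hba-a2 and Hbb-bt at 0. The cultures therefore held transcripts of several cell types, and the part of these marker differences in the results below was not tested. Beside these marker counts, 14.4% of all genes tested rose and 10.8% fell. Whether any marker list differs from these shares was not tested.

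A few import genes differed between the groups, in both directions. The outer membrane receptors Tomm70a and Tomm20 and the channel gene Tomm40 were about 1.4-fold lower with HMGB2, while Timm44, the anchor of the matrix import motor, and Samm50 and Mtx2 of the SAM complex were about 1.3-fold higher. Of 31 import genes, 3 rose, 3 fell and 25 stayed outside the threshold of an adjusted p under 0.05 (edgeR's quasi-likelihood test, Benjamini-Hochberg over 15429 genes). Over all genes tested, 14.4% rose and 10.8% fell, 25.2% in all, and the share of import genes called was 19.4%. The median log2 fold change of the import genes was 0.04, beside -0.002 over all genes tested. All 3 HMGB2 libraries lay above all 3 vector libraries for 5 import genes and below them for 6, where 21.6% and 18.9% of all genes tested did so. The share of import genes called was thus not above that of all genes. In RNA from whole cultures, fewer cells of a type and less RNA per cell cannot be told apart.

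**Figure D1:**
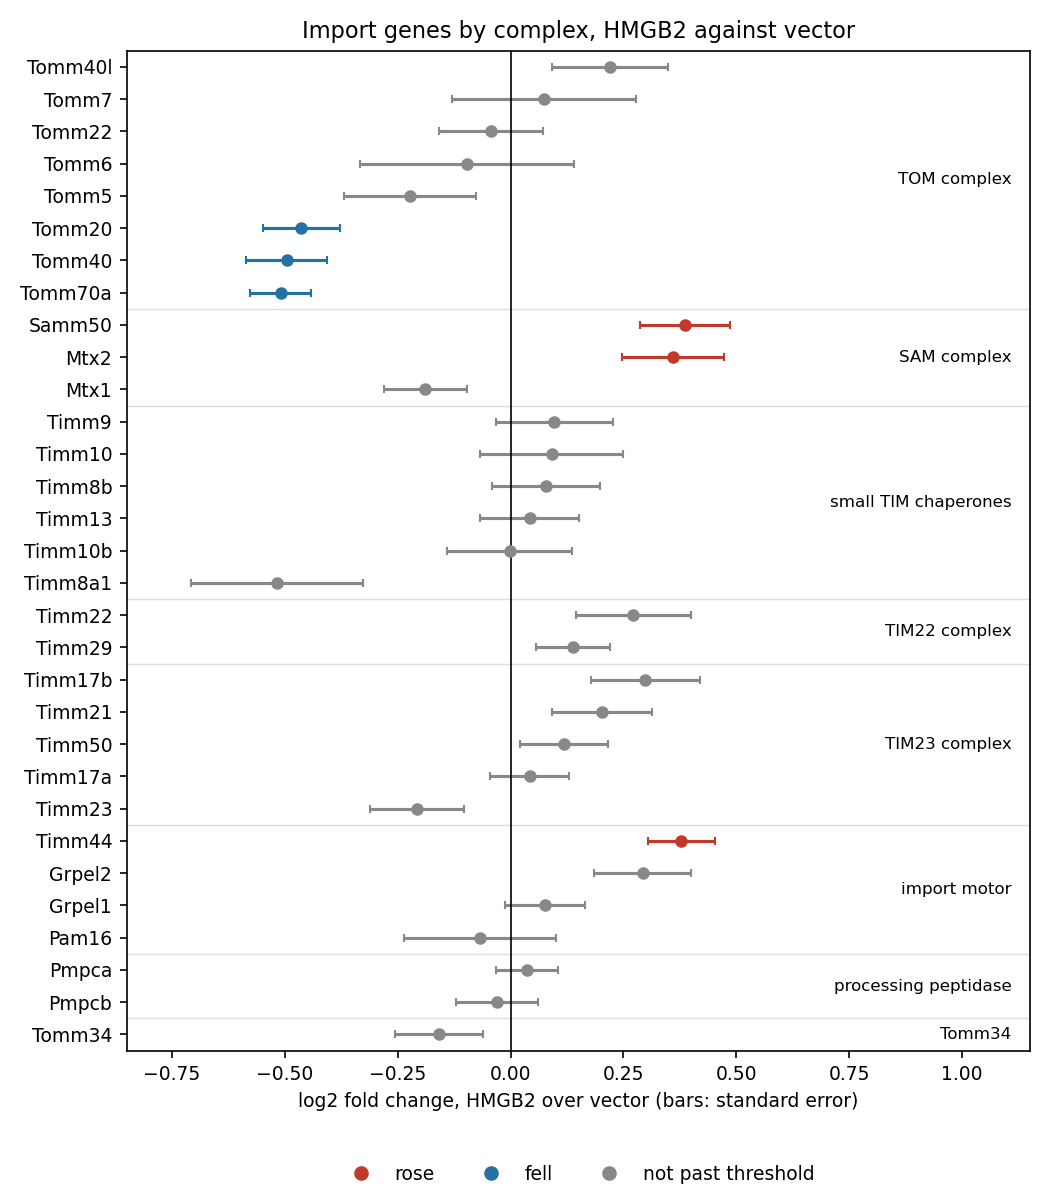
Log2 fold change of HMGB2 over vector for each of the 31 import genes (horizontal axis), grouped by complex (vertical axis), with points at the edgeR estimate and bars for its standard error. Red points rose, blue points fell and grey points did not pass the threshold; Tomm20, Tomm40 and Tomm70a lie near -0.5 and Samm50, Mtx2 and Timm44 between 0.36 and 0.39.

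The bases before the start of 3 of the 6 called genes are shown because they carry matches to promoter motifs known from nuclear genes of mitochondria. Capitals mark the matches, which are CCGGAAG, the core bound by ETS factors such as GABPA, in Mtx2 and Tomm70a (on either strand), and the palindromic motif of NRF1 (GCGC, any base, then TGCGC) in Tomm20. The sequences are the 250 bases before the RefSeq start on GRCm38.p6, each written on the strand of its gene, for Tomm70a chr16:57121464-57121713 (plus strand), for Tomm20 chr8:126945922-126946171 (minus strand) and for Mtx2 chr2:74825562-74825811 (plus strand).
Tomm70a: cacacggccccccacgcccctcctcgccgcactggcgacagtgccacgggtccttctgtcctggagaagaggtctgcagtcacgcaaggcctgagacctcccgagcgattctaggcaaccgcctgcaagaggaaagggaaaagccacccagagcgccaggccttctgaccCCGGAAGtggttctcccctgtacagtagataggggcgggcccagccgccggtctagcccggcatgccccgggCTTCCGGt
Tomm20: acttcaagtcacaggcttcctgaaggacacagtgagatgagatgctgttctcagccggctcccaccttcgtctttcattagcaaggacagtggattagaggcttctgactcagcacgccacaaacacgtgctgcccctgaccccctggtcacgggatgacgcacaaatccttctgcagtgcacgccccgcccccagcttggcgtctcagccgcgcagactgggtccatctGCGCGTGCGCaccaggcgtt
Mtx2: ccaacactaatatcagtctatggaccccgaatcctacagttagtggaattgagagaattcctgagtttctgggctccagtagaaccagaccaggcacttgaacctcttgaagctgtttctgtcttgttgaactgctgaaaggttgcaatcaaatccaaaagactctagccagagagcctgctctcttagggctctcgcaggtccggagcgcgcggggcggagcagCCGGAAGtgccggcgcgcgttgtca

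A promoter window was found for 27 of the 31 import genes and not for Grpel2, Timm21, Tomm40l and Tomm7. On either strand of these windows, CCGGAAG was present for 12 of the 27 genes (44.4%), beside 14.7% of 10999 tested genes with a window and 6.91% of all 32851 windows. The 12 genes were Grpel1, Mtx1, Mtx2, Pmpca, Pmpcb, Timm10, Timm23, Timm29, Timm8b, Tomm22, Tomm34 and Tomm70a. In Tomm70a the matches began 80 and 8 bases before the RefSeq start, and in Mtx2 the match began 25 bases before it. RefSeq starts differ from the GENCODE gene positions given below. The Tomm70a window ends at 57121713, past the GENCODE start at 57121703, so its nearer match lies inside the gene as GENCODE places it. The ETS letters were thus found before 1 gene that fell, 1 that rose and 10 that did not pass the threshold.

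The NRF1 motif was present before Tomm20 and Pam16, 20 and 15 bases before the RefSeq start, and before 8.69% of tested genes (3.74% of all windows). CAAGGTCA, bound by estrogen-related receptors, was present before Timm8b (1.14% of tested genes, 1.33% of windows). The heat shock element (GAA, TTC and GAA, each separated by 2 bases of any kind) was present before Timm9 (0.455% of tested genes, 0.466% of windows). AAGATGGCG, a YY1 motif, was present before none of the 27 (1.32% of tested genes, 0.606% of windows). No letters of these 5 motifs were found in the windows of Tomm40, Samm50 and Timm44. A match describes the sequence and not binding, and no binding data are in these files.

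The TOM complex held all 3 import genes that fell, and of its 8 genes the other 5 did not pass the threshold. Over all genes tested 10.8% fell, and whether this complex differs from that share was not tested. Tomm70a encodes the receptor for carrier-type precursors that cytosolic HSP70 and HSP90 deliver (ENSMUSG00000022752, GRCm38 chromosome 16, 57121703 to 57156705). It held 157, 159.9 and 167 CPM in HMGB2 libraries 1, 2 and 3, against 239, 225 and 225 CPM in vector libraries 1, 2 and 3. Every HMGB2 library lay below every vector library by more than the range within either group. The gene fell by 0.51 in log2 units (SE 0.07; edgeR, adjusted p = 0.000585) and was 1.42-fold lower.

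Tomm40 encodes the beta-barrel channel through which nearly all precursors cross the outer membrane (ENSMUSG00000002984, GRCm38 chromosome 7, 19701313 to 19715438). It held 68.1, 68.6 and 72.5 CPM with HMGB2, against 111, 90.1 and 94.1 CPM with the vector. The groups did not overlap, and vector 1 was the highest library. Tomm40 fell by 0.50 in log2 units (SE 0.09; edgeR, adjusted p = 0.00351) and was 1.41-fold lower.

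Tomm20 encodes the receptor that binds presequences (ENSMUSG00000093904, GRCm38 chromosome 8, 126930667 to 126945844). It held 72.7, 76.3 and 84.4 CPM with HMGB2, against 116, 105 and 101 CPM with the vector. The groups were again separate, with HMGB2 3 the highest of its group and vector 1 the highest of the other. Tomm20 fell by 0.46 in log2 units (SE 0.08; edgeR, adjusted p = 0.00375) and was 1.38-fold lower. A stretch of 8.9% of its longest transcript is 99.5% identical to the copy Gm14494, which held 1075 counts over the HMGB2 libraries and 1136 over the vector libraries, beside 3708 and 4295 for Tomm20. With the counts of copies added to their gene, Tomm20 fell by 0.43 (edgeR adjusted p = 0.00402).

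The 3 falls were called when each library was left out in turn, with adjusted p values of at most 0.00704 for Tomm70a, 0.0237 for Tomm40 and 0.027 for Tomm20. They were also called under all 17 alternatives.

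**Figure D2:**
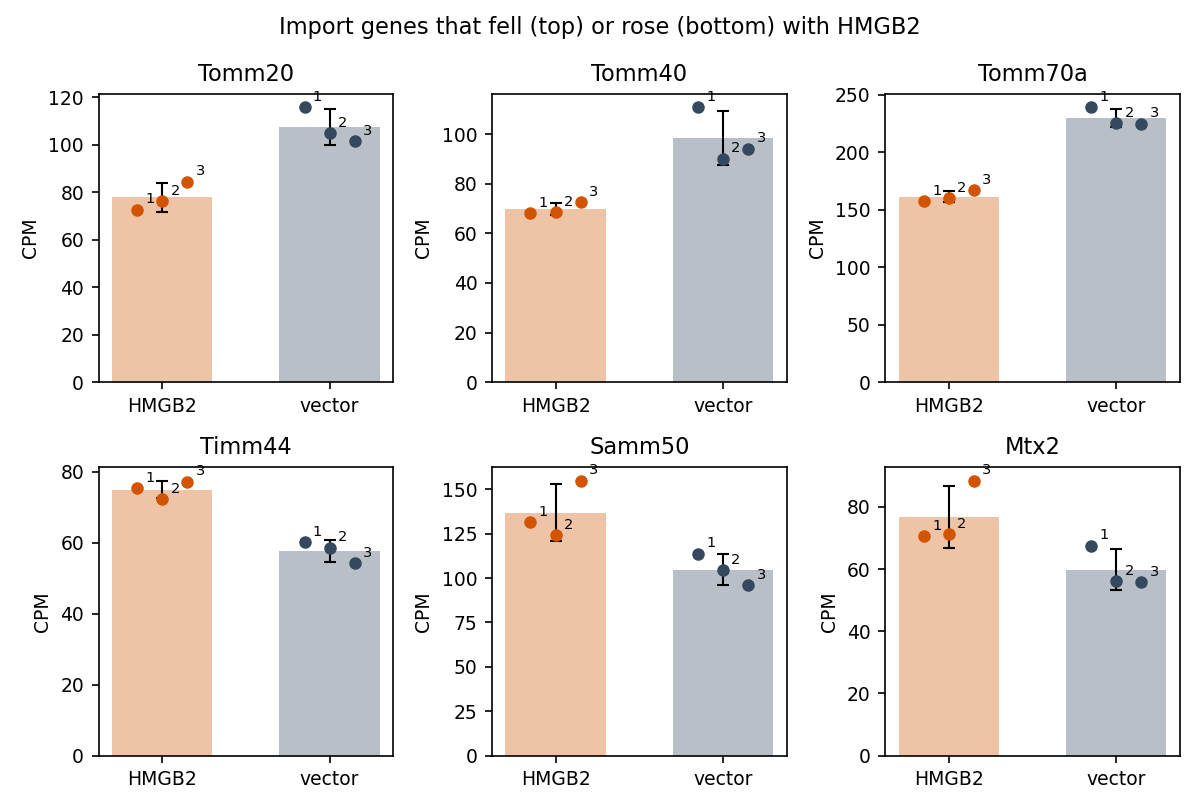
CPM (vertical axis, from 0) of the 6 called import genes in the HMGB2 and vector libraries, with bars at the group mean, black bars for the SD (n = 3 each), and a numbered point for each library. The points of the 2 groups do not overlap in any panel; Samm50 and Mtx2 have their highest point in HMGB2 3.

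The other 5 TOM genes did not pass the threshold, and whether they differ from the 3 that fell was not tested. Tomm22, the central receptor that holds the complex together, held 42.6, 41.1 and 51.3 CPM with HMGB2 and 52.4, 45.5 and 41.4 CPM with the vector (log2 fold change -0.04, SE 0.12). Its groups overlapped, and the sign of its value turned without HMGB2 1, HMGB2 2 or vector 1. The small subunits Tomm5, Tomm6 and Tomm7, which stabilise the channel, had log2 fold changes of -0.22 (SE 0.15), -0.10 (SE 0.24) and 0.07 (SE 0.20), none past the threshold and all with overlapping groups. Tomm7 ranged from 29.8 to 39.2 CPM with HMGB2 and from 24.9 to 43.7 CPM with the vector, its highest value being in vector 1. Tomm6 is uncertain, because 87.6% of its transcript is shared with Gm21981, which overlaps it on the same strand. Reads that fit both may be missing from either count, whatever the strand setting. Tomm6os overlaps a further 19.4% of its exon bases on the other strand, and the strand setting of the counting is not known.

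Tomm40l encodes a second form of the channel and was counted at a lower level than Tomm40. It held 11.7, 12.6 and 9.76 CPM with HMGB2 and 10.02, 9.49 and 9.73 CPM with the vector (log2 fold change 0.22, SE 0.13, edgeR adjusted p = 0.253). The ratio of Tomm40l to Tomm40 counts was 0.172, 0.184 and 0.135 with HMGB2, against 0.0904, 0.105 and 0.103 with the vector. Every HMGB2 ratio was above every vector ratio. The exact two-sided permutation p was 0.1, the smallest that 3 against 3 allows, and 0.15 adjusted over 6 such ratios. Exons of Tomm40l overlap Nr1i3 on the other strand over 64.3% of their length. Nr1i3 held 14 counts with HMGB2 and 17 with the vector. If counting ignored strand, reads in the shared stretch may be missing from both counts. The level of Tomm40l and its ratio to Tomm40 are therefore uncertain.

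The SAM complex inserts beta-barrel proteins such as TOMM40 itself into the outer membrane. Of its 3 genes, 2 rose, beside 14.4% of all genes tested, and this difference was not tested. Samm50, its barrel subunit (ENSMUSG00000022437, GRCm38 chromosome 15, 84192241 to 84217267), held 131, 124 and 155 CPM with HMGB2, against 114, 104 and 96.2 CPM with the vector. The groups did not overlap, although HMGB2 2 and vector 1 lay close. Samm50 rose 1.31-fold (log2 fold change 0.39, SE 0.10, edgeR adjusted p = 0.0201). The call was lost without vector 2 (0.0748) or vector 3 (0.0813).

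Mtx2, a metaxin that faces the cytosol (ENSMUSG00000027099, GRCm38 chromosome 2, 74825803 to 74878431), held 70.5, 71.3 and 88.4 CPM with HMGB2, against 67.5, 56.0 and 55.9 CPM with the vector. The lowest HMGB2 library was above the highest vector library by less than the range within either group. Mtx2 rose 1.28-fold (log2 fold change 0.36, SE 0.11, edgeR adjusted p = 0.0432). This call was lost without vector 2 (0.153), vector 3 (0.143), HMGB2 1 (0.0575), HMGB2 2 (0.0668) or HMGB2 3 (0.109).

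Mtx1, the other metaxin, lay on the opposite side without passing the threshold, with 23.9, 25.6 and 27.6 CPM in HMGB2 libraries and 30.6, 29.4 and 27.8 CPM in vector libraries (log2 fold change -0.19, SE 0.09, edgeR adjusted p = 0.171). The ratio of Mtx2 to Mtx1 was 2.95, 2.79 and 3.20 with HMGB2 and 2.204, 1.90 and 2.01 with the vector (exact two-sided permutation p = 0.1, the smallest possible; 0.15 adjusted). Exons of Mtx1 overlap Gm43737 on the other strand over 21.2% of their bases. As the strand setting is not known, Mtx1 and its ratio are uncertain. The barrels Samm50 and Tomm40 moved in opposite directions. The count ratio of Samm50 to Tomm40 was 1.93, 1.81 and 2.14 with HMGB2, against 1.03, 1.16 and 1.02 with the vector. This last ratio was picked for the calls of its genes and was not tested.

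None of the 6 small TIM genes passed the threshold. The most abundant, Timm8b, held 40.1, 35.1 and 48.5 CPM with HMGB2 and 42.1, 37.5 and 37.6 CPM with the vector (log2 fold change 0.08, SE 0.12). Timm13, whose product works with the TIMM8 proteins, held 31.1, 30.2 and 34.5 CPM with HMGB2 and 35.7, 28.2 and 29.3 CPM with the vector (log2 fold change 0.04, SE 0.11). Both had overlapping groups. Exons of Timm8b overlap Nkapd1 on the other strand over 15.6% of their bases, so its level depends on the unknown strand setting.

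Timm9, Timm10 and Timm10b, which form the chaperone for carrier precursors and its docking form, had log2 fold changes of 0.10, 0.09 and -0.002. Timm8a1, the mouse counterpart of the gene mutated in human deafness-dystonia syndrome, was the exception in its group. It had only 4.51, 4.62 and 6.30 CPM with HMGB2, against 8.90, 6.72 and 6.58 CPM with the vector. The groups did not overlap, and the log2 fold change of -0.52 (SE 0.19) was the lowest of all import genes, but it missed the threshold (edgeR adjusted p = 0.0767). It was called without HMGB2 3 (0.0327), without both HMGB2 3 and vector 1 (0.0265), without a filter on low counts (0.0403), with the length correction (0.0191) and with that correction and the replicate block (0.0487). It was not called in the other 12 alternatives (0.0626 to 0.234). The copy Gm9797 matches 43.1% of its transcript at 100% identity and held 15 counts with HMGB2 and 25 with the vector. The ratio of Timm8b to Timm8a1 was 8.89, 7.60 and 7.69 with HMGB2 and 4.73, 5.59 and 5.72 with the vector (exact two-sided permutation p = 0.1, the smallest possible; 0.15 adjusted).

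The TIM22 genes did not pass the threshold, and both had positive values. Timm29, a subunit found in animals, held 58.8, 57.0 and 56.9 CPM with HMGB2 and 57.5, 50.2 and 49.3 CPM with the vector (log2 fold change 0.14, SE 0.08, edgeR adjusted p = 0.259). Timm22, the channel, held 27.7, 25.4 and 26.5 CPM with HMGB2 and 26.7, 19.5 and 19.8 CPM with the vector (0.27, SE 0.13, edgeR adjusted p = 0.157). For both genes vector 1 lay with the HMGB2 libraries while vector 2 and vector 3 were lower.

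In the TIM23 complex 0 of 5 genes passed. Timm17a, a channel subunit, held 104, 97.9 and 117 CPM with HMGB2 and 112, 97.7 and 100.4 CPM with the vector (log2 fold change 0.04, SE 0.09). Its paralog Timm17b held 22.5, 22.2 and 25.0 CPM with HMGB2, against 20.8, 15.8 and 20.2 CPM with the vector (0.30, SE 0.12, edgeR adjusted p = 0.104). The HMGB2 libraries of Timm17b were all above the vector libraries. The ratio of Timm17b to Timm17a was 0.217, 0.227 and 0.215 with HMGB2 and 0.186, 0.161 and 0.202 with the vector (exact two-sided permutation p = 0.1, the smallest possible; 0.15 adjusted).

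The receptor gene Timm50 held 35.6, 36.4 and 42.5 CPM with HMGB2 and 37.8, 34.8 and 33.0 CPM with the vector (log2 fold change 0.12, SE 0.10). Timm21, which links TIM23 to the TOM complex and the respiratory chain, had a log2 fold change of 0.20 (SE 0.11). Timm23, the channel itself, was on the negative side (-0.21, SE 0.10, edgeR adjusted p = 0.187), with 16.2, 14.1 and 16.7 CPM with HMGB2 and 18.6, 18.6 and 17.03 CPM with the vector. Its level is uncertain, because Gm10273 matches 95.6% of its transcript at 99.9% identity, and reads that fit both may be missing from either count.

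In the import motor, which pulls precursors into the matrix with mitochondrial HSP70, Timm44 rose and the other 3 genes did not pass. Timm44 tethers the motor to the TIM23 channel (ENSMUSG00000002949, GRCm38 chromosome 8, 4259731 to 4275913). It held 75.4, 72.3 and 77.3 CPM with HMGB2, against 60.2, 58.6 and 54.3 CPM with the vector. The groups were separate by more than the range within either. Timm44 rose by 0.38 in log2 units (SE 0.07, edgeR adjusted p = 0.00509). The call held under all 17 alternatives. The edgeR adjusted p was at most 0.0278 without each library in turn, and 0.0429 with the replicate block.

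Grpel1 and Grpel2 are nucleotide exchange factors of mitochondrial HSP70. Grpel1, the more abundant, held 85.8, 80.6 and 88.5 CPM with HMGB2 and 88.4, 81.4 and 72.0 CPM with the vector (log2 fold change 0.08, SE 0.09). Grpel2 held 21.9, 25.5 and 22.3 CPM with HMGB2, against 20.6, 17.2 and 19.1 CPM with the vector (0.29, SE 0.11, edgeR adjusted p = 0.0753). Its groups were separate, and it passed the threshold without vector 1. The ratio of Grpel2 to Grpel1 overlapped between groups (exact two-sided permutation p = 0.3, 0.36 adjusted). Pam16, a J-like regulator of the motor, had a log2 fold change of -0.07 (SE 0.17) from 4.75, 4.69 and 3.88 CPM with HMGB2 and 4.17, 4.75 and 5.01 CPM with the vector. Gm9803 matches 89.6% of the Pam16 transcript at 100% identity, so this value is uncertain.

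The 2 subunits of the matrix processing peptidase were abundant and stayed close between groups. Pmpca held 132, 134 and 129 CPM with HMGB2 and 123, 135 and 126 CPM with the vector (log2 fold change 0.04, SE 0.07), and its exons overlap those of Inpp5e on the other strand. Pmpcb held 100.4, 96.4 and 112 CPM with HMGB2 and 116, 102 and 98.4 CPM with the vector (-0.03, SE 0.09). The ratio of Pmpca to Pmpcb did not separate the groups (exact two-sided permutation p = 0.6, also 0.6 adjusted). Tomm34, a cytosolic cochaperone named with the TOM genes, held 26.0, 28.3 and 30.0 CPM with HMGB2 and 34.4, 29.8 and 29.8 CPM with the vector (-0.16, SE 0.10, edgeR adjusted p = 0.281).

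**Figure D3:**
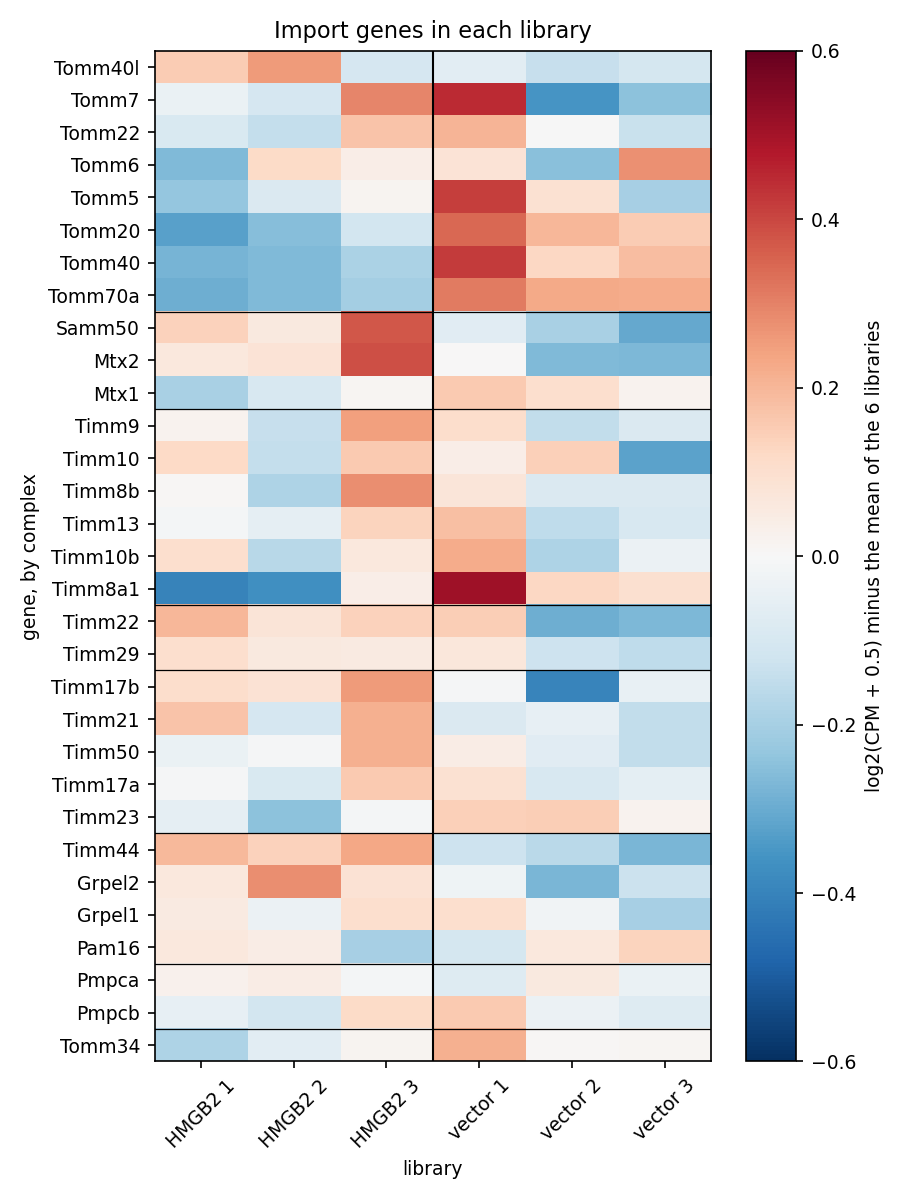
Each import gene (rows, by complex) in each library (columns), coloured by log2(CPM + 0.5) minus the mean of the 6 libraries, with colours reaching their ends at 0.6 in either direction. Tomm20, Tomm40 and Tomm70a are blue in all HMGB2 libraries and red in all vector libraries, Timm44 is the reverse, and many other genes are red in vector 1 and HMGB2 3.

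Part of the variation in this gene group lay between libraries of the same group. In vector 1, 29 of 31 import genes were higher than the mean of vector 2 and vector 3, the median difference being 0.18 in log2 units. In HMGB2 3, 25 of 31 were higher than the mean of HMGB2 1 and HMGB2 2, with a median difference of 0.16. The same share over all genes tested was not computed, so these counts do not set the import genes apart. Across the 15429 tested genes, which are not independent replicates, the deviation of these 2 libraries from the others of their group had a Spearman correlation of -0.44 (vector 1) and -0.40 (HMGB2 3) with gene length, shorter genes being higher. Among the import genes, the median deviation in vector 1 was 0.163 for the 3 members under 1000 bases and 0.194 for the other 28. In HMGB2 3 it was 0.176 and 0.153. The short members lay lower in vector 3 (-0.43 against -0.111) and HMGB2 2 (-0.29 against -0.0956). In HMGB2 1 the values were -0.0411 and -0.0522, and in vector 2 -0.0146 and -0.0786. With only 3 short members, a length pattern within the import genes was not tested.

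The number of import genes that rose depended on which libraries were in the fit. It was 7 without vector 1, where Grpel2, Timm17b, Timm22 and Tomm7 joined the 3 genes above, and 8 without both vector 1 and HMGB2 3, where Timm29 joined them too. It was 1, namely Timm44, without vector 2 or without vector 3. Counts over all genes moved too: 2224 genes rose with every library in, 2526 without vector 1, 3265 without both, 1593 without vector 2 and 1688 without vector 3. The number that fell was 3 or 4 in every alternative, the fourth being Timm8a1.

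Levels between genes were compared per length, as FPKM, which scales counts by gene length and library size. The import genes spanned a wide range, from 80.1 ± 13.8 FPKM with HMGB2 and 74.8 ± 5.45 FPKM with the vector for Timm8b to 1.83 ± 0.19 and 1.89 ± 0.17 FPKM for Pam16 (SD, n = 3 each). Timm8b stood apart at the top, its lowest library (67.8 FPKM) being above the highest of the next gene, Tomm5 (49.9 FPKM). Tomm5 in turn was above Pmpca (28.6 to 31.2 FPKM), and Timm22 (6.03 to 8.70 FPKM) was above Timm21 (4.38 to 5.80 FPKM). The other 27 of 30 pairs of neighbours in the order overlapped over the 6 libraries.

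The 6 called genes sat next to each other in this order, between ranks 9 and 14. With HMGB2, Tomm70a, Tomm20 and Tomm40 averaged 16.6 ± 0.645, 15.9 ± 1.35 and 15.5 ± 0.654 FPKM, against 23.3 ± 0.963, 21.7 ± 1.64 and 21.6 ± 2.56 FPKM with the vector. Mtx2, Samm50 and Timm44 averaged 21.003 ± 2.93, 20.99 ± 2.62 and 20.6 ± 0.820 FPKM with HMGB2, against 16.1 ± 1.90, 15.8 ± 1.39 and 15.6 ± 0.863 FPKM with the vector. In the HMGB2 libraries the genes that rose were above the TOM genes in mean FPKM, and in the vector libraries below them. The 6 genes were picked for their calls and have similar means over all libraries. This crossing therefore follows from their calls and was not tested. The gene lengths implied by the authors' FPKM ran from 518 bases for Timm8b to 9777 bases for Tomm70a, and levels rest on those lengths.

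**Figure D4:**
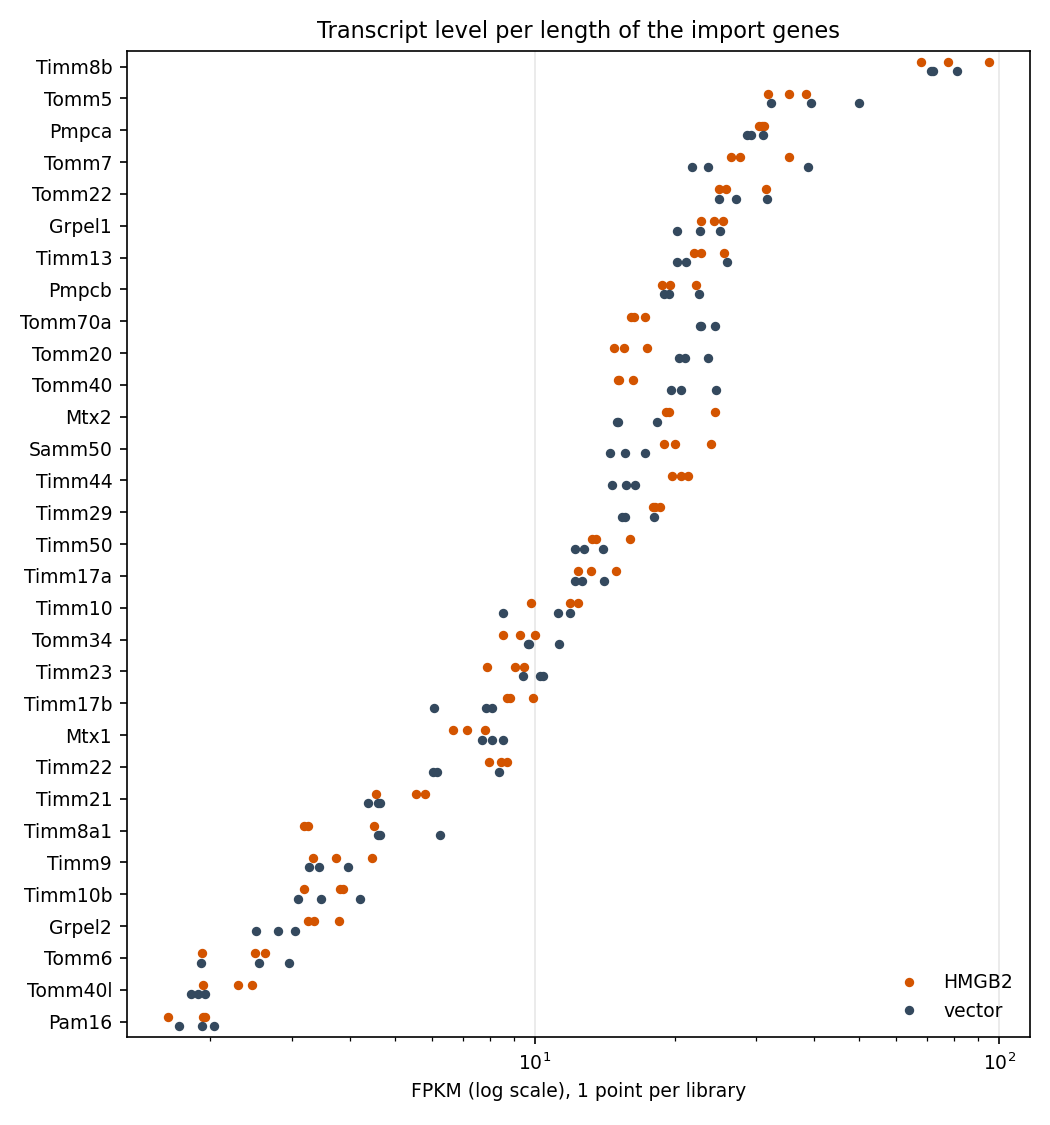
FPKM of the 31 import genes (horizontal axis, log scale), ordered by the mean of all libraries, with 1 point per library in orange (HMGB2) and dark blue (vector). Timm8b lies apart at the top, and the HMGB2 points lie left of the vector points for Tomm70a, Tomm20 and Tomm40 and right of them for Samm50 and Timm44.

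Further genes of the route that the naming rule leaves out were taken from a list of 33 written by hand, all of which were tested. Of these partner genes, 6 rose, 4 fell and 23 were not called, with a median log2 fold change of 0.12. The 10 called are 30.3% of the list, beside 14.4% higher and 10.8% lower (25.2% in all) over all genes tested. The count of those that rose was 9 without vector 1, 11 without both vector 1 and HMGB2 3, and 3 without any other single library. The count that fell was 2 without vector 2, vector 3, HMGB2 1, HMGB2 2 or HMGB2 3.

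The strongest differences among partners were in the matrix chaperonin, which folds proteins once they are imported. Hspd1 held 281, 288 and 318 CPM with HMGB2, against 924, 846 and 782 CPM with the vector, and fell by 1.52 in log2 units (SE 0.09, edgeR adjusted p = 3.6e-06). Its partner Hspe1 held 43.3, 45.4 and 52.4 CPM with HMGB2, against 139, 113 and 98.2 CPM with the vector, and fell by 1.31 (SE 0.13, edgeR adjusted p = 0.000108). Hspa9, the mitochondrial HSP70 that powers the motor, held 694, 709.5 and 755 CPM with HMGB2 and 843, 769 and 743 CPM with the vector, and did not pass (log2 fold change -0.13, SE 0.08, edgeR adjusted p = 0.27).

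Clpx, the unfoldase of the matrix protease ClpXP, held 74.1, 76.4 and 86.7 CPM with HMGB2, against 51.9, 46.7 and 49.2 CPM with the vector, and rose by 0.68 in log2 units (SE 0.09, edgeR adjusted p = 0.000421). Oxa1l, which inserts proteins into the inner membrane from the matrix side, held 66.8, 64.8 and 63.5 CPM with HMGB2, against 51.2, 52.4 and 49.9 CPM with the vector, and rose by 0.35 (SE 0.07, edgeR adjusted p = 0.00582). Apoo, a subunit of the MICOS complex that shapes cristae, held 14.5, 13.8 and 16.2 CPM with HMGB2, against 8.18, 5.48 and 8.23 CPM with the vector, and rose by 1.03 (SE 0.16, edgeR adjusted p = 0.00157). The groups did not overlap for any of these 3 genes, and their calls held without each library in turn, as did those of Hspd1 and Hspe1.

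The other 5 partner calls were near the threshold. Apool (log2 fold change 0.40) and Immt (0.25), both MICOS genes, and the matrix protease gene Lonp1 (0.24) rose. Besides these and Apoo, the other 4 MICOS genes of the list did not pass, with values of 0.18 (Chchd3), 0.28 (Chchd6), 0.19 (Micos10) and 0.08 (Micos13). Dnajc11, a protein of the outer membrane that associates with MICOS and SAM, and Pitrm1, which degrades cleaved presequences, each fell by 0.23. All 5 were called without vector 1, and each lost its call without any 1 of the other libraries, although its direction held. With 1 library left out, the log2 fold change ran from 0.32 to 0.52 for Apool, 0.22 to 0.30 for Immt, 0.21 to 0.30 for Lonp1, -0.26 to -0.21 for Dnajc11 and -0.26 to -0.18 for Pitrm1. Their highest edgeR adjusted p values were 0.102, 0.118, 0.154 and 0.181 for Apool, Immt, Lonp1 and Pitrm1 without vector 2, and 0.118 for Dnajc11 without HMGB2 2.

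**Figure D5:**
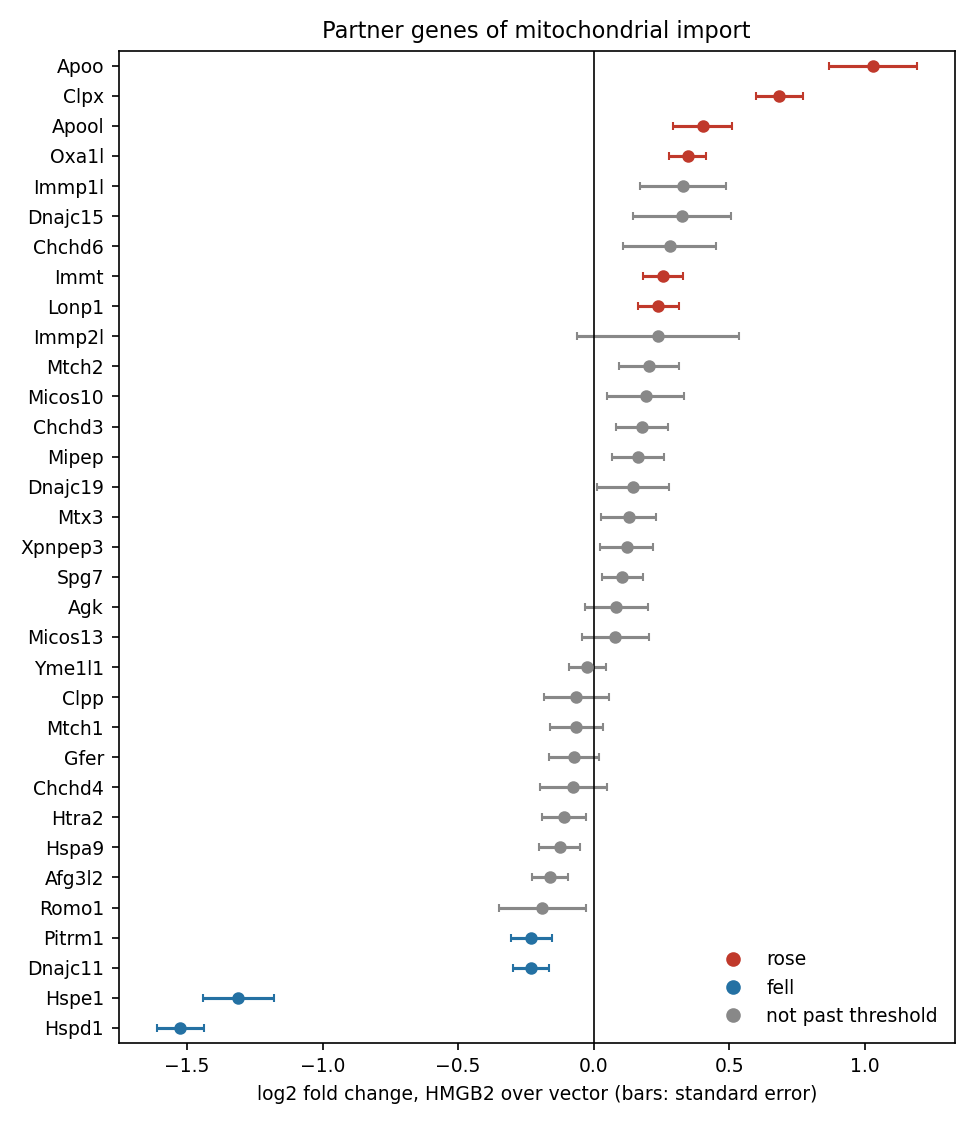
Log2 fold change of HMGB2 over vector (horizontal axis) for the 33 partner genes, ordered by value, with bars for the standard error and colours for the call. Hspd1 and Hspe1 lie at -1.52 and -1.31, apart from the other genes, and Apoo is highest at 1.03.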

How the data were processed

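RNA was extracted from cardiomyocytes with TRIzol and sequenced after VAHTS Universal V5 library preparation, per the labels' protocols. The mm10 build and the tools StringTie 1.3.3b, HTSeq 0.6.1, HISAT2 2.2.1 and FastQC 0.10.1 are named, per the submitters' processing notes, without their roles. Whether counting used strand is not given in the sources used here. Raw counts per Ensembl gene and FPKM values of the same genes were deposited by the authors. Column abbreviations (H-NC, H-OE) were matched to the labels through genotype and replicate number. No per-sample column was left unused.

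The group difference was fitted for each gene in R 4.3.3 with edgeR 4.0.16 (filterByExpr with minimum count 10 and minimum total 15, TMM scaling, robust quasi-likelihood F-test of the group, Benjamini-Hochberg over 15429 genes). Each SE was taken as the size of the log2 fold change divided by the root of F. CPM uses TMM-scaled library sizes. Scripts were tested on simulated data. Total counts ran from 12498215 to 16618365 per library. Within groups, pairs of libraries differed by more than sampling noise. The chi-square per degree of freedom was 1.995 between HMGB2 1 and HMGB2 2 and 2.765 between vector 2 and vector 3. For pairs with HMGB2 3 or vector 1 it was 14.29 to 20.63.

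Alternatives used DESeq2 1.42.0, limma 3.58.1 on log2(FPKM + 1) and log2(FPKM + 0.1), other scaling, no filter, left-out libraries, the replicate block and a length correction (lowess, span 0.3). Copies were found with blastn (at least 95% identity over 100 bases and 8% of the transcript). Adding the counts of those whose symbol begins with Gm was an alternative chosen after seeing the data. Matches with other symbols, such as Tada2b, Inpp5e and Tomm6os, were not added.

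All import genes are named. Values per library are given for called genes and, where a complex has under 2 of these, for its 2 most abundant members, and others were added after their values were seen. Of partner genes, those called are named, and Hspa9, Chchd3, Chchd6, Micos10 and Micos13 were added after their values were seen. Members, partner list, markers and motifs were chosen with earlier results of these data known. For 1 of 31 import genes the table's start and end equal those of GENCODE M21, so gene positions are from GENCODE M21 (GRCm38), found through the Ensembl identifier. Promoters are from RefSeq on GRCm38.p6, matched by symbol.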

Additional observations from a re-analysis of the deposited data

How the results depend on the processing

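The calls of Tomm20, Tomm40, Tomm70a and Timm44 were kept in all 17 alternatives, that of Samm50 in 14 and that of Mtx2 in 9. With a replicate block, 1 import gene (Timm44) rose and 3 fell, Samm50 and Mtx2 having adjusted p of 0.0831 and 0.116. Under the replicate block 1459 genes of all tested rose and 754 fell, and 3 partner genes rose and 2 fell. With the block and the length correction 2 partner genes fell. The numbers share no stated origin, and deviations of same-numbered libraries correlated at -0.318, 0.231 and -0.375, so the block was not used as the main design. Without both vector 1 and HMGB2 3, 8 import genes rose, 11 partner genes rose and 2986 genes of all tested fell. Without a filter, and with limma on log2(FPKM + 1) or log2(FPKM + 0.1), 2 partner genes fell. With 1 library left out, 1 to 7 import genes rose, 866 to 1960 of all genes fell, 3 to 9 partner genes rose and 2 to 4 fell. The cause of these shifts was not tested.

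Values near 0 changed sign. Timm10b was 0.0182 with library totals, 0.0143 and 0.0189 with the FPKM alternatives, 0.0915 without both libraries and 0.00836 with copies added, where Pam16 was 0.0449 and Tomm6 0.0444. With 1 library left out, log2 fold changes ran from -0.137 to 0.0238 for Pam16, -0.0242 to 0.152 for Timm13, -0.0121 to 0.186 for Timm9, -0.146 to 0.0516 for Tomm22, -0.0457 to 0.195 for Timm10, -0.0765 to 0.369 for Tomm7, -0.0948 to 0.0454 for Pmpcb, -0.00164 to 0.148 for Grpel1, -0.251 to 0.0545 for Tomm6, -0.0515 to 0.184 for Timm8b, -0.0276 to 0.102 for Timm17a and -0.0949 to 0.12 for Timm10b. None of these genes was called except Tomm7, which rose without vector 1 and without both libraries.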
